A study of Mus musculus with 4 samples.

Results

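CTCF peaks that overlapped acetylated chromatin but carried no Trim33 peak are described here, in mouse embryoid bodies at day 6 of differentiation. A CTCF peak was taken if it shared at least 1 bp with a peak of histone H3 acetylated at lysine 27 (H3K27ac) and no base with a Trim33 peak. Of 52446 CTCF peaks, 3693 met this rule, or 7.04% (95% Wilson interval 6.83% to 7.26%). The remaining CTCF peaks were 622 with both H3K27ac and Trim33, 1304 with Trim33 and no H3K27ac, and 46827 with neither. The 3693 peaks were 85.6% of the 4315 acetylated CTCF peaks (84.5% to 86.6%). The set was chosen by the presence of peaks in the CTCF, H3K27ac and Trim33 libraries, so peak heights in these libraries are given as a description, with no test.

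Chromatin came from embryoid bodies, which are aggregates in which embryonic stem cells differentiate into a mixture of cell types. The stem cells were derived from Trim33FF:UbcCreERT2 blastocysts of an outbred strain of B6 and 129Sv, used at passages 8 to 12. They carry a conditional Trim33 allele and a tamoxifen-inducible Cre recombinase driven by the ubiquitin C promoter. The labels give no treatment, and all 4 libraries (CTCF, H3K27ac, Trim33 and input DNA) share this genotype. Embryoid bodies of 20 dishes of 10 cm were harvested, fixed in 1% formaldehyde for 15 min, and 30 µg of chromatin entered each precipitation. With 1 library per antibody, the values have no replicate check. Intervals cover counting error only, and neighbouring peaks are not independent. In such a mixture, binding in fewer cells and weaker binding per cell cannot be told apart.

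CTCF is a DNA-binding protein with a row of zinc fingers that recognises a long, oriented sequence. It acts at insulators and, by stopping cohesin as it extrudes DNA, at the anchors of chromatin loops, and it also binds near many promoters. H3K27ac is deposited by the acetyltransferases p300 and CBP on nucleosomes flanking active promoters and enhancers, and the nucleosome-depleted start itself carries little of it. Trim33 is a chromatin reader and ubiquitin ligase of the Nodal and TGF-beta pathway.

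The promoters below are examples from acetylated CTCF peaks without Trim33 in which the letters of the CTCF recognition sequence were found. Each promoter window holds a CTCF summit. The runs were placed on the matching letters, and in most of them the summit lay outside the run. At Med4, Apbb2 and Adprhl2 the CTCF summit also lay outside the H3K27ac peak. The letters searched, on both strands, were the 12-letter core of the CTCF recognition sequence with 3 free positions, and a looser form with 5 free positions that contains each match of the stricter one. The first 5 are among the 6 highest such CTCF peaks with the stricter letters, and Med4 and B3glct are the highest with the looser letters alone. Each run has 30 bases of the RefSeq promoter of GRCm38.p6 (mm10), written 5′ to 3′ on the transcribed strand, with the matching letters in capitals.
Nipsnap2: tcttggcacGCCCCCTGGCGGcagcactga
Trrap: ggctacggcGCCCCCTGGCGGcccggaggc
Wdr41: agcgcacgcCCACTAGGGGGCgcccgagcg
Apbb2: agacgctagGCCACCTGGAGGggatacccg
Adprhl2: gactccgggCCACAAGGGGGCgctgtgggg
Med4: ctcctttgcCCTGTAGATGGCgctagaact
B3glct: cccgatcccggCCGCCAGAGGGCgcagccc
The letters ran along the transcribed strand at Wdr41, Adprhl2, Med4 and B3glct, and against it at Nipsnap2, Trrap and Apbb2. The plus-strand runs lie at chr5:129724954-129724983 (Nipsnap2), chr5:144768730-144768759 (Trrap), chr13:94976302-94976331 (Wdr41), chr14:73509888-73509917 (Med4) and chr5:149678200-149678229 (B3glct). The minus-strand runs lie at chr5:66618977-66619006 (Apbb2) and chr4:126321739-126321768 (Adprhl2).

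In each of the 7 promoters the match lay upstream of the start. The windows searched reach 250 bases before the start and 50 after it, which favours an upstream place. At Wdr41, a partner of the C9orf72 protein, its centre was 27 bp upstream and the CTCF summit 14 bp upstream. At Trrap, the scaffold of several histone acetyltransferase complexes, these distances were 49 and 80 bp. At Med4, a subunit of the Mediator complex that links transcription factors to RNA polymerase II, they were 146 and 106 bp. At Apbb2, an adaptor that binds the amyloid precursor protein, the match was 174 bp upstream and the summit 75 bp upstream. B3glct, which encodes a glucosyltransferase, had its match 13 bp upstream and its summit 24 bp downstream.

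According to the authors' deposited summary, there were 33090822 CTCF tags, 29995044 H3K27ac tags, 13643929 Trim33 tags and 25729171 input tags, and 13643929 of the input tags were used to call Trim33 peaks. In that summary, 26.46% of CTCF reads, 13.02% of H3K27ac reads and 0.72% of Trim33 reads lay in peaks. The absence of a Trim33 peak therefore means that none was detected at this depth. The authors' deposited table of merged regions holds 3321 regions with CTCF and H3K27ac and no Trim33. Of 5 markers per class, an H3K27ac summit lay within 1 kb of a gene end at 3 pluripotency, 1 mesoderm, 4 endoderm and 2 ectoderm genes. Acetylation was thus found at some markers of each class, whereas Zfp42, Esrrb, T, Mixl1, Mesp1, Hand1, Afp, Pax6, Otx2 and Nes had no such summit. An acetylated CTCF peak without Trim33 lay within 1 kb of an end of 1 of these markers, Gata6. Over all protein-coding genes this share was 10.1%. Beyond 1 kb, such peaks were nearest to Sox17 (1178 bp from the gene end), Pou5f1 (1297 bp), Sox2 (2084 bp) and Nanog (5525 bp), among others.

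Acetylated CTCF peaks without Trim33 covered nearly the whole range of CTCF heights. Their fold enrichment over background, as the authors' peak caller gave it, ran between 3.06 and 60.6, with a median of 10.6 and quartiles of 6.79 and 19.5. The median was 21.2 for CTCF peaks with H3K27ac and Trim33, 26.6 for those with Trim33 and no H3K27ac, and 9.12 for those with neither. The peaks were 511 bp wide at the median, against 822 bp with H3K27ac and Trim33, 1062 bp with Trim33 alone and 393 bp with neither. Without Trim33, acetylated CTCF peaks were thus lower and narrower than acetylated CTCF peaks with it, as the curves of cumulative CTCF fold show. Their place against CTCF peaks with neither depended on the overlap asked for. With H3K27ac over at least 50% of the CTCF peak the median was 8.24, against 9.22 with neither, and with the CTCF summit inside the H3K27ac peak it was 8.16, against 9.22. When the 52446 CTCF peaks were split into 10 groups of equal size by fold, the rule took between 5.78% and 7.04% of each of the lowest 8 groups, 8.37% of the next and 11.3% of the highest (10.5% to 12.2%). This excess at the top was not seen with the summit inside the H3K27ac peak, which took 4.18% of the highest group (3.67% to 4.75%) and 4.73% of the lowest (4.19% to 5.34%), nor with an overlap of 50%, which took 4.46% and 4.82%. Among acetylated CTCF peaks, those without Trim33 made up 93.1% of the lowest group and 68.9% of the highest.

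**Figure D1:**
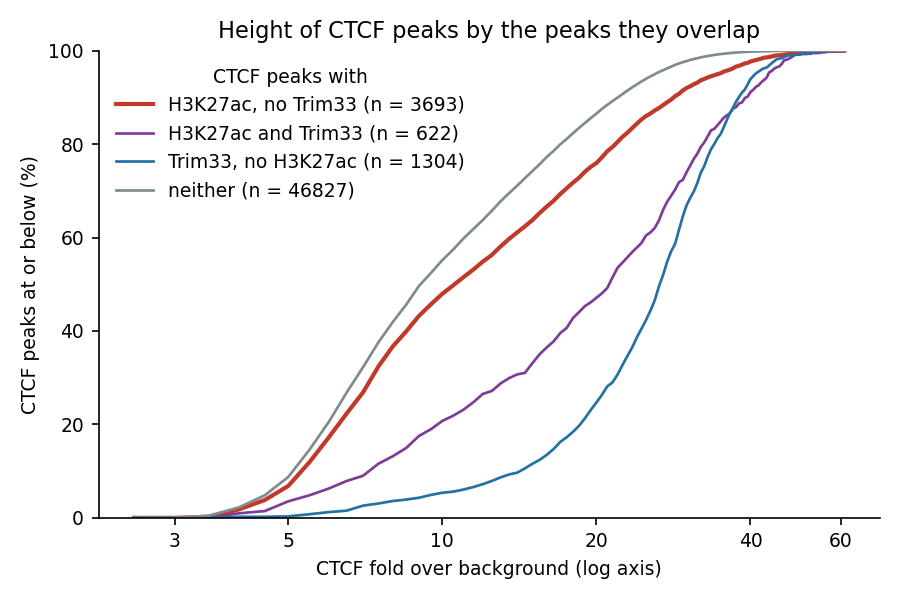
Share of CTCF peaks at or below each CTCF fold over background (log axis), 1 line per class. The line of the 3693 acetylated peaks without Trim33, with a median of 10.6, runs between both classes with Trim33 (medians 21.2 and 26.6) and the peaks with neither (9.12).

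Each of the 3693 peaks was assigned the H3K27ac peak with which it shared most bases, which gave 3498 H3K27ac peaks. A further overlap was left aside for 259 CTCF peaks (7.01%) that touched more than 1 H3K27ac peak, and 3759 H3K27ac peaks were touched in all. The 3498 had a median H3K27ac fold of 8.81 and a median width of 652 bp, against 10.2 and 800 bp where CTCF and Trim33 were both present and 6.55 and 421 bp for the 25652 H3K27ac peaks without CTCF. The heights of both signals were unrelated across the acetylated CTCF peaks without Trim33, with a Pearson r of 0.01 and a Spearman rho of 0.00 between log2 folds. This is a description over 3693 peaks that share their libraries and their input.

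The highest CTCF folds of the set were at the ends of genes with varied cellular functions. Dnajc11, a mitochondrial J-domain protein, had the highest CTCF fold, 60.6, with an H3K27ac fold of 21.5. Med4 had a CTCF fold of 58.3 and an H3K27ac fold of 10.3, and B3glct had 56.2 and 14.9. Ago1, an Argonaute protein of RNA silencing, had a CTCF fold of 54.8, and Chd1l, a chromatin remodeller, had 52.9. Trrap had a CTCF fold of 52.7 and an H3K27ac fold of 25. Exosc8, a subunit of the RNA exosome, had a CTCF fold of 50.5 and an H3K27ac fold of 27, on an acetylated peak of 2154 bp. The other peaks among the highest 15 were nearest to Dhrs13, Nipsnap2, Wdr41, Myrf, Dip2b, Ccdc71l, Apbb2 and Tsfm, with CTCF folds between 50.1 and 55.6. In each of the 15 the summit lay within 1 kb of an end of the named gene.

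Ranked by H3K27ac instead, the set began with Pkm, the pyruvate kinase of glycolysis. A single H3K27ac peak of 5494 bp and fold 40.6 covered 3 of its CTCF peaks, of fold 13.5, 6.41 and 6.05. A Trim33 peak was close to each of them without overlap, at gaps of 2926, 283 and 435 bp. Epc1, a subunit of the NuA4 acetyltransferase complex, had an H3K27ac fold of 38.9 and a CTCF fold of 46.6. The CTCF summit lay 26.1 kb from the nearer end of Epc1 and 528 bp from an end of another RefSeq gene. Kansl1, a subunit of the NSL acetyltransferase complex, had 38.1 for H3K27ac and 28.3 for CTCF. Ino80, the ATPase of a chromatin remodelling complex, had 35.9 for H3K27ac and 5.30 for CTCF, with a Trim33 peak 968 bp away. Pcif1, which methylates the mRNA cap-adjacent adenosine, had 38.4 and 4.50. Tmpo, a protein of the nuclear envelope and lamina, held a pair of CTCF peaks, of fold 21.2 and 7.66, under an H3K27ac peak of fold 37.1, and Pdik1l had an H3K27ac fold of 36.8. CTCF folds among these most acetylated peaks thus ran between 4.50 and 46.6.

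Most of the set lay at genes. Gene position was not itself part of the rule, but the rule asked for H3K27ac, which marks active promoters and enhancers. The CTCF summit was within 1 kb of an end of a RefSeq gene in 60.9% of acetylated CTCF peaks without Trim33 (59.3% to 62.4%). With Trim33 as well this share was 63.2%, a difference of -2.31 points whose interval (95% Newcombe, -6.34 to 1.85) includes 0. It was 23.5% for CTCF peaks with Trim33 and no H3K27ac, and 13.9% with neither, and the set exceeded the share with neither by 47.0 points (45.4 to 48.6). How much of this excess comes from the choice by H3K27ac was not tested, and no gene-end share is given here for H3K27ac peaks without CTCF. A further 29.9% of the acetylated CTCF peaks without Trim33 lay inside genes, farther than 1 kb from an end, against 21.7% of those with Trim33, a difference of 8.24 points (4.54 to 11.7). Another 9.18% lay between genes, against 15.1% with Trim33, a difference of -5.93 points (-9.09 to -3.16). Acetylated CTCF peaks with and without Trim33 therefore did not differ at gene ends beyond counting error, whereas inside and between genes they did.

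The RefSeq promoter table gives the direction of transcription for 3600 of the 3693 peaks, since chromosome 18 was not used here. A start lay within 1 kb in 55.2% of them (53.6% to 56.8%), against 53.1% of acetylated CTCF peaks with Trim33 and 6.12% of CTCF peaks with neither. The 250 bp upstream of a start held 14.8%, against 18.6% with Trim33, a difference of -3.81 points (-7.28 to -0.679). The 250 bp downstream held 13.9%, against 9.87% with Trim33, a difference of 3.99 points (1.15 to 6.42). Within this narrow region, acetylated CTCF peaks without Trim33 were thus more often downstream and less often upstream than those with it. CTCF heights were not matched in this comparison, with median folds of 10.6 without Trim33 and 21.2 with it. The side of the start also went with CTCF height, as given below. Of the 3600 peaks, 1138 (31.6%) had neither a gene end nor a start within 1 kb. Another 475 (13.2%) had a gene end within 1 kb and no listed start. Only 79.9% of protein-coding genes have a window in the promoter table, so some starts are not listed.

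**Figure D2:**
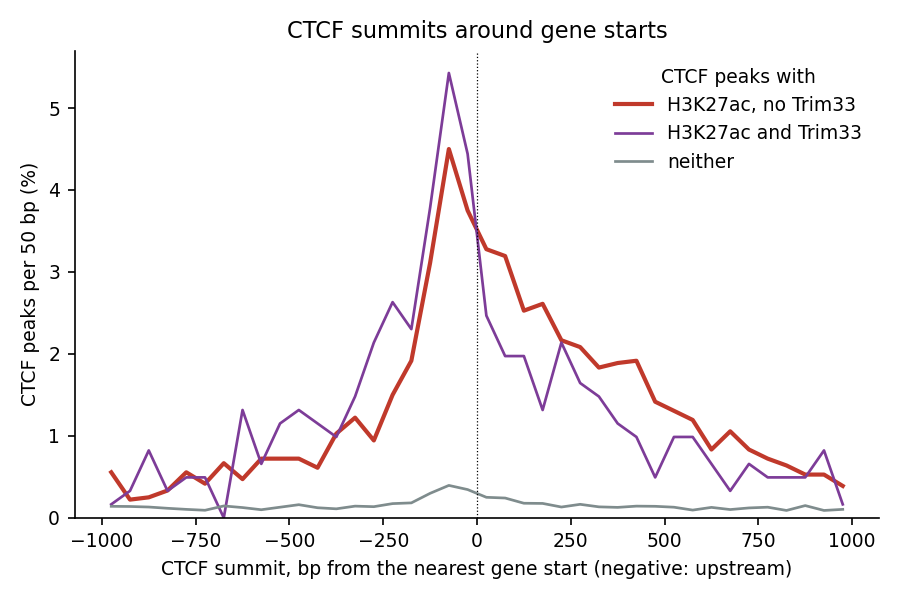
Share of CTCF peaks of each class whose summit falls in each step of 50 bp around the nearest gene start, with upstream negative and the start as a dotted line. Acetylated peaks without Trim33 have 14.8% of summits in the 250 bp upstream and 13.9% in the 250 bp downstream, against 1.40% and 0.980% of peaks with neither.

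CTCF height went with the side of the start. The 532 acetylated CTCF peaks without Trim33 in the 250 bp upstream had a median CTCF fold of 20.1 (quartiles 10.4 and 29.4). The 499 in the 250 bp downstream had a median of 8.75 (6.41 and 15.3). The 1613 beyond 1 kb of a listed start had 10.6, and 475 of these lay within 1 kb of a gene end. The upstream side was also the higher in the other classes, with 26.0 against 16.3 downstream for acetylated peaks with Trim33 and 12.9 against 8.49 for CTCF peaks with neither. Median H3K27ac folds were close on both sides, 10.2 upstream and 10.8 downstream. Split into 5 groups of equal size by CTCF fold, 5.66% of the lowest group lay in the 250 bp upstream (4.20% to 7.58%) and 32.3% of the highest (29.0% to 35.8%). The share in the 250 bp downstream was 16.1% in the lowest group and 9.37% in the highest, while the share within 1 kb of a start was 55.3% in the lowest and 59.0% in the highest. Both sides of 250 bp together held 21.8% of the lowest group (18.9% to 24.9%) and 41.7% of the highest (38.1% to 45.3%). Higher CTCF peaks were thus closer to the start, on its upstream side.

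Acetylation and CTCF were also offset from each other at starts, most clearly where CTCF lay upstream. Where CTCF was in the 250 bp upstream (median 92 bp upstream of the start), the H3K27ac summit lay downstream of the start in 74.4% of 532 peaks (70.6% to 78.0%), at a median of 154 bp downstream. Where CTCF was in the 250 bp downstream (median 110 bp), the H3K27ac summit lay downstream in 83.4% of 499 (79.8% to 86.4%), at a median of 178 bp. The quartiles of that last distance, 105 and 264 bp, span the CTCF median. With CTCF on either side, the summit of the assigned H3K27ac peak was therefore mostly downstream of the start. Promoters with H3K27ac and no CTCF are not compared here.

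Overlap of the peaks did not mean that the CTCF summit was acetylated. In 36.0% of the acetylated CTCF peaks without Trim33 (34.5% to 37.6%) the CTCF summit lay outside the assigned H3K27ac peak (35.3% outside each H3K27ac peak touched), at a median of 113 bp from its edge, against 44.4% of those with Trim33 (40.5% to 48.3%). Of the 2363 summits inside, 49.2% (47.2% to 51.2%) lay in the outer 50% of the H3K27ac peak, where an even spread would put 50%. With Trim33 this share was 57.8% of 346 (52.5% to 62.9%). Summits inside acetylated peaks were thus spread evenly along them without Trim33. In 243 peaks (6.58%) the CTCF summit sat in a gap with H3K27ac peaks within 1 kb on both sides.

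The highest CTCF summits were the ones most often outside acetylation. The summit lay inside the H3K27ac peak in 84.4% of the lowest of 5 groups by CTCF fold (81.6% to 86.9%), in 67.9% of the middle group and in 36.9% of the highest (33.5% to 40.5%). The median width of the CTCF peaks was 243 bp in the lowest group and 988 bp in the highest, and a wider peak can share a base with an H3K27ac peak farther from its summit. The part of width in this trend was not tested.

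**Figure D3:**
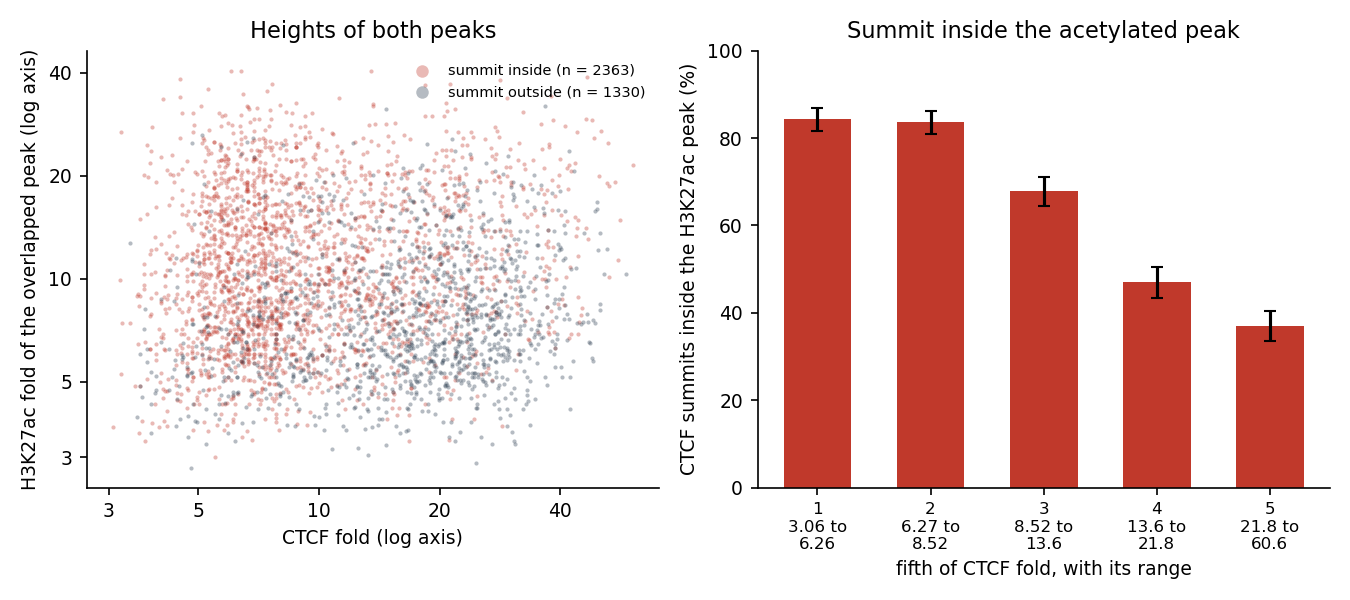
Left, CTCF fold against the fold of the overlapped H3K27ac peak for the 3693 acetylated CTCF peaks without Trim33 (log axes), coloured by whether the CTCF summit lies inside (2363) or outside (1330) that peak. Right, share of summits inside in 5 groups by CTCF fold, with 95% Wilson intervals, at 84.4% in the lowest group and 36.9% in the highest.

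H3K27ac height also went with gene position. Split into 5 groups by H3K27ac fold, 43.1% of the least acetylated CTCF peaks without Trim33 lay within 1 kb of a gene end (39.6% to 46.7%) and 74.3% of the most acetylated (71.0% to 77.3%). Their median CTCF folds were 10.5 and 9.64. In the 5 groups by CTCF fold, the gene-end share was 58.0% in the lowest (54.4% to 61.5%) and 66.4% in the highest (63.0% to 69.8%). The groups between them had 58.1% to 61.1%. Higher acetylation was thus found more often at gene ends, with little difference in CTCF height.

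The sequence under the promoter peaks was read from 728 RefSeq windows of 300 bases, 250 before and 50 after the start, that held the summit of 683 of the peaks. The stricter CTCF letters were present in 11.1% of these windows (9.04% to 13.6%), against 1.16% of all 30803 promoter windows used. The share was 12.5% at CTCF peaks with H3K27ac and Trim33 and 10.6% at CTCF peaks with neither, a difference from the last of 0.507 points (-2.63 to 3.68). It was 0.845% in 6035 windows with H3K27ac and no CTCF peak, a difference of 10.3 points (8.18 to 12.8). The looser letters were in 36.5% of the windows of the set, 10.2% of those with H3K27ac alone and 8.60% of all windows. The letters thus went with the CTCF peak, and their share at acetylated and unacetylated CTCF promoters did not differ beyond counting error. CTCF heights were not matched in this comparison. In the 250 bp upstream of a start the median CTCF fold was 20.1 in the set and 12.9 with neither. A window without them says only that these letters are not in it.

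The letters were found more often under higher CTCF peaks. In 4 groups of 182 windows by CTCF fold, the stricter letters were in 3.30% of the lowest (1.52% to 7.0%) and 19.2% of the highest (14.2% to 25.6%). The looser letters were in 19.2% of the lowest and 53.8% of the highest. The 82 stricter matches lay at a median of 21.0 bp from the CTCF summit, and 61 of them within 50 bp. Their median place was 80 bp upstream of the start, in windows that lie mostly upstream of it. Of the 82 matches, 52 ran along the transcribed strand (63.4%, 52.6% to 73.0%).

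**Figure D4:**
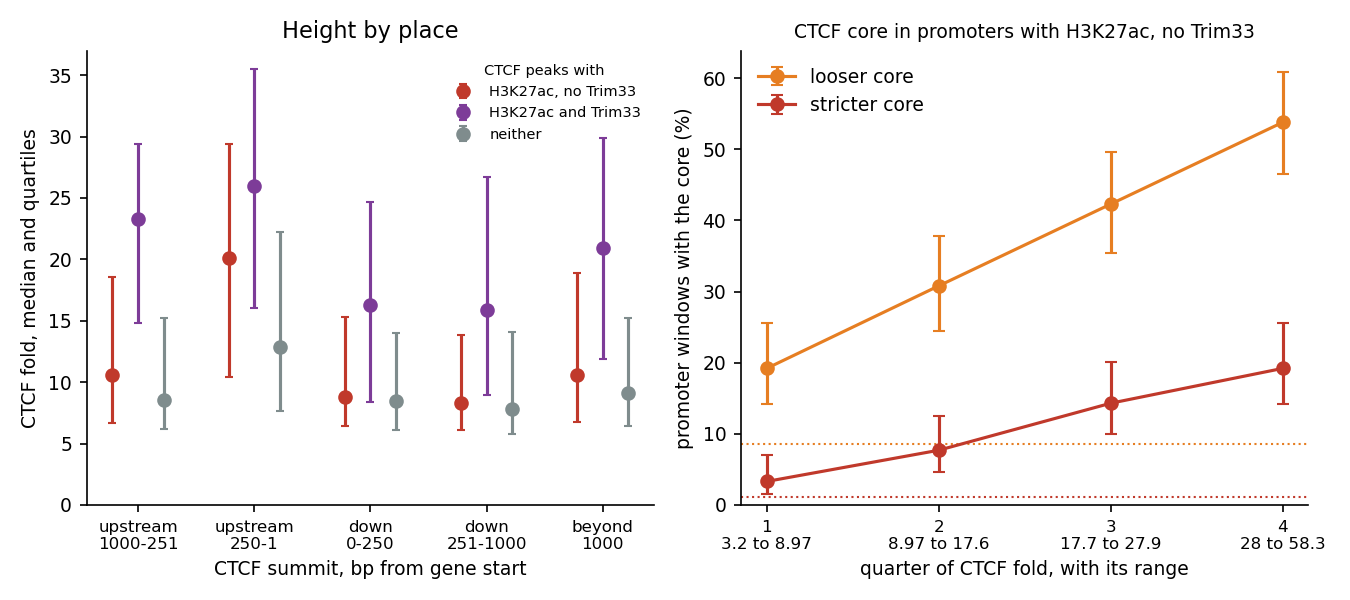
Left, CTCF fold by place around the gene start, with points for medians and bars for quartiles, in 3 classes. Right, share of promoter windows of acetylated CTCF peaks without Trim33 that hold the CTCF core, in 4 groups by CTCF fold, with 95% Wilson intervals and dotted lines for all windows (8.60% looser, 1.16% stricter): the stricter core is in 3.30% of the lowest group and 19.2% of the highest.

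Other features of the promoters were compared with both unacetylated CTCF promoters and acetylated promoters without CTCF. A start of another gene within 1 kb in the opposite direction was present in 20.9% of the windows, against 8.98% at CTCF peaks with neither, a difference of 11.9 points (8.35 to 15.5), and 26.0% at H3K27ac without CTCF, a difference of -5.15 points (-8.16 to -1.86). The share over all windows was 11.0%. Windows of the set held 25.2 ± 10.2 CpG dinucleotides (SD over 728 windows), against 17.5 ± 12.2 at CTCF peaks with neither (791 windows) and 23.2 ± 11.5 at H3K27ac without CTCF (6035 windows). Bidirectional promoters were thus more common than at unacetylated CTCF promoters, and less common than at acetylated promoters without CTCF. The GC box GGGCGG, bound by Sp factors, was in 69.6% of windows of the set, 48.3% at CTCF peaks with neither, 65.9% at H3K27ac without CTCF and 35.5% of all windows. The ETS core CCGGAAG was in 23.5%, with 7.46%, 21.2% and 8.65% in the same 3 comparisons. The CCAAT box, bound by NF-Y, was in 31.7%, with 28.7%, 36.0% and 37.4%, and the NRF1 core was in 2.20%, with 0.379%, 2.68% and 0.928%. For the GC box, ETS and NRF1 letters the set was thus above the unacetylated CTCF promoters, by 21.3 points (16.5 to 26.1), 16.0 points (12.5 to 19.6) and 1.82 points (0.705 to 3.18). For the CCAAT box this difference was 3.03 points (-1.58 to 7.65). Against acetylated promoters without CTCF, the set was above for the GC box by 3.73 points (0.0927 to 7.17) and differed by -4.28 points (-7.77 to -0.604) for the CCAAT box. For ETS and NRF1 the intervals of that difference included 0, at 2.25 points (-0.871 to 5.62) and -0.487 points (-1.43 to 0.908). Acetylated CTCF promoters with Trim33 (144 windows) had opposite starts in 16.7%, the GC box in 63.9%, ETS in 23.6%, CCAAT in 26.4% and NRF1 in 3.47%. The interval of the difference from the set included 0 for each of these features. Those windows held 23.5 ± 9.29 CpG dinucleotides.

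The next CTCF summit was 3.99 kb away at the median, against 4.87 kb for acetylated CTCF peaks with Trim33 and 1.87 kb for CTCF peaks with neither. Although no Trim33 peak overlapped, 19.6% of the set had one within 10 kb (18.4% to 20.9%), against 8.39% of CTCF peaks with neither (8.14% to 8.64%), and the median distance to Trim33 was 73.1 kb against 130 kb. In 295 peaks (7.99%) the gap to Trim33 was at most 1 kb.

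Peaks at the limits of the rule were taken or left on a few bases. The smallest overlaps with H3K27ac were 1 bp near Exosc5, 2 bp near Mphosph6 and 3 bp near Snurf, Zfp503 and Bax, and 83 peaks shared under 50 bp. Just outside, CTCF peaks near Ralgps2 and Trappc2l touched an H3K27ac peak with no base shared, and those near Bid, Fzd1 and Nme1 were 2, 3 and 7 bp away. Toward Trim33, the peaks near Sgk1, Mmp14, Acbd3, Sin3a and Nhlrc2 had gaps of 0, 2, 4, 7 and 10 bp and were kept. Those near Irs1, Klhl24 and Ramac shared 7 bp with Trim33, those near Tle1 and 1520401A03Rik 8 bp, and they were left out.

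Across the genome, 10.1% of 21883 protein-coding genes had an acetylated CTCF peak without Trim33 within 1 kb of an end, while 26.2% had a CTCF peak of any class and 39.2% an H3K27ac summit there. Of the 8571 genes with an H3K27ac summit at an end, 25.1% had such a CTCF peak. The 10.1% and the 25.1% stand as the background for the 14 gene lists, for which no test was made. Among 20 genes of CTCF, cohesin and loop regulation, 6 had such a peak (30.0%, 14.5% to 51.9%), and these were 42.9% of the 14 acetylated ones (21.4% to 67.4%). They were Pds5b (CTCF fold 49.6) and Pds5a (20.5), which regulate cohesin on chromatin, Esco1 (46.4), which acetylates cohesin, Stag2 (30.1), a cohesin subunit, Ctcf itself (14.9), and Yy1 (6.88), a factor of promoter loops. Of 47 genes of Mediator and transcription elongation, 14 had such a peak (29.8%, 18.7% to 44.0%), or 31.1% of the 45 acetylated ones (19.5% to 45.7%). The highest were Med4, Med11 (36.6), Hexim1 (24.3), an inhibitor of the elongation kinase P-TEFb, and Med20 (17.8). As shares of acetylated genes, the intervals of both lists include the 25.1% of all acetylated genes.

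Genes used by most cells were also among those with such a peak. Of 77 cytosolic ribosomal proteins, 20 had such a peak (26.0%, 17.5% to 36.7%), among them Rps20 (CTCF fold 34.3), Rps14 (33.9) and Rpl5 (32.2). Of 67 genes of oxidative phosphorylation, 13 did (19.4%, 11.7% to 30.4%), among them Uqcrc1 (29.1) of complex III and Ndufb7 (28.8) of complex I. Spliceosome and hnRNP genes had 6 of 49 and cell cycle regulators 6 of 37, with Dhx16 (24.9) and the phosphatase Cdc25a (23.5) the highest. Taken as a share of acetylated genes, the 4 lists ran between 15.4% and 28.8%, each with an interval that includes the 25.1% of all acetylated genes.

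In the Nodal and TGF-beta pathway, 7 of 36 genes had an acetylated CTCF peak without Trim33 (19.4%, 9.75% to 35%), or 29.2% of the 24 acetylated ones. Within 1 kb of an end, their CTCF folds were between 5.24 and 9.46, at the ligand Nodal (7.83), the receptor Acvr2a (6.88), the nuclear partner Foxh1 (5.24), and the inhibitors Smad7 (9.46), Skil (8.75), Ski (7.81) and Tgif1 (6.17). Just beyond that limit, at 1213 bp from the end of Foxh1, lay a higher such peak, of CTCF fold 18.1. In the Wnt pathway it was 6 of 44, including the receptors Fzd8 (26.5) and Fzd5 (17.2) and the transducers Dvl1 (19.5) and Dvl3 (18.3). The endoderm list had 5 of 23, with Foxa3 (22.6), Lama1 (16.1) and Gata6 (13.2), and with Col4a1 and Col4a2, which share 1 peak (6.43) between their adjacent ends. The pluripotency list had 4 of 30, at Klf5 (17.4), Lin28b (14.4), Sall4 (9.22) and Utf1 (5.25), and the neural list 2 of 28, at Sox11 (13.2) and Zic5 (6.88). None of 30 primitive streak and mesoderm genes had such a peak (interval up to 11.4%), of which 6 were acetylated at an end and 9 had a CTCF peak. That interval includes the 10.1% of all protein-coding genes. Over the 6 acetylated genes the interval ran up to 39.0%, which includes the 25.1%. None of 39 Hox genes had such a peak (up to 8.97%), of which 15 had a CTCF peak and 0 an H3K27ac summit. Of 41 imprinted genes, 6 had one, with Peg10 and Sgce sharing 1 peak (16.2), followed by Ube3a (9.24), Gnasas1 (7.57), Zrsr1 (5.32) and Mest (5.25). As shares of acetylated genes, the Wnt list had 26.1%, endoderm 33.3%, pluripotency 23.1%, neural ectoderm 18.2% and imprinted genes 33.3%, beside the 25.1% of all acetylated genes, and each of these intervals includes 25.1%.

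**Figure D5:**
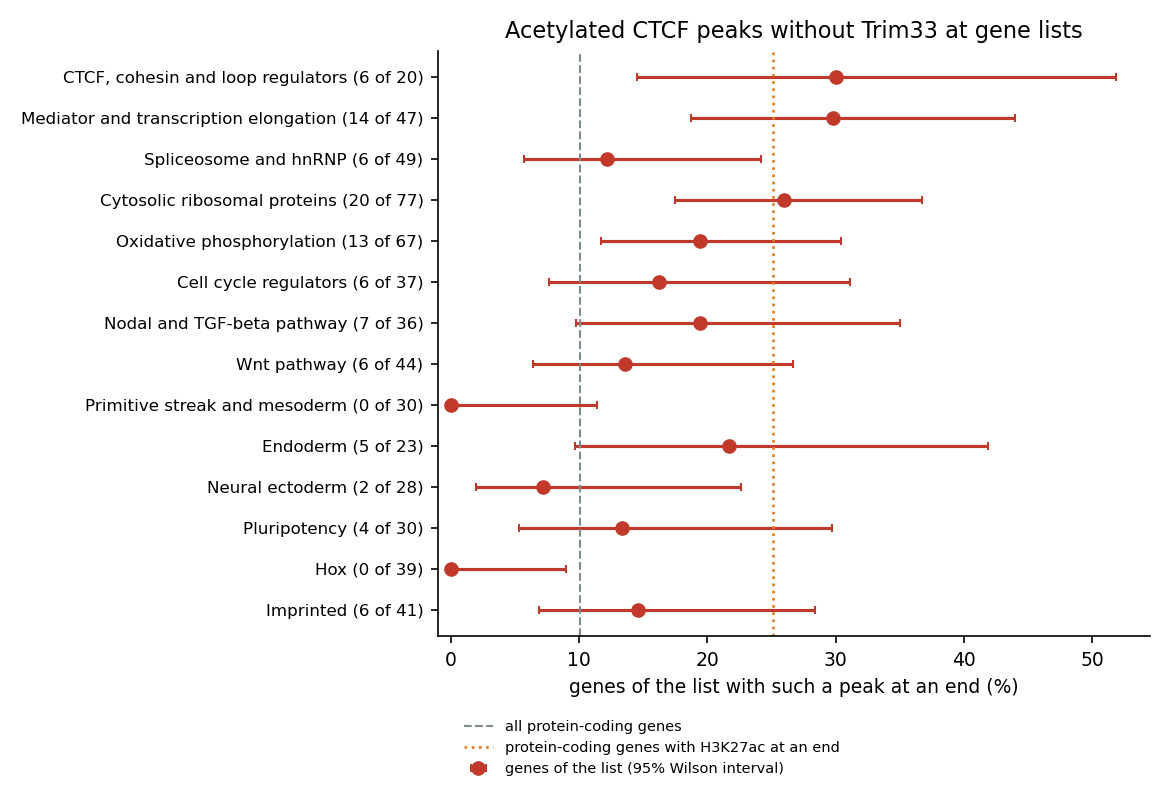
Share of the genes of 14 lists with an acetylated CTCF peak without Trim33 within 1 kb of an end, with 95% Wilson intervals. The dashed line is the 10.1% of all protein-coding genes and the dotted line the 25.1% of those with H3K27ac at an end.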

How the data were processed

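Peaks were called by the authors separately for each antibody against the same input library, of which 13643929 tags were used for Trim33 and 25729171 for CTCF and H3K27ac. The deposited lists give, per peak, the summit as an offset in bp, −log10 p, −log10 q and a fold enrichment, which is a ratio to background. Tools listed in the submitters' processing notes are SICER 1.1, MACS2, MACS and BWA 0.7.12, with hg19 and mm10 as builds, and MACS 2.1.0 stands in the deposited summary. Which of them made which list is not given in the sources used here. That summary, deposited by the authors, also gives the count of merged regions, in which the peaks of the 3 lists are merged, and the reads and tags per library. Overlaps, positions and shares were computed in Python 3.11.15 with pandas 2.3.3, scipy 1.17.1 and numpy 2.4.6, tested on simulated data, and drawn with matplotlib 3.10.9.

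Gene ends and promoter windows are those of RefSeq for GRCm38.p6, where 79.9% of 21883 protein-coding genes have a window. Chromosome 18 windows were not used here. Overlapping windows of 1 gene were counted once, leaving 30803 of 32851. All 570 entries of the 14 gene lists matched a gene.

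Genes named are nearest to the 15 highest peaks by CTCF fold, the 10 highest by H3K27ac fold, the 5 on each side of each limit of the rule and the 5 H3K27ac peaks with most CTCF peaks. Up to 4 genes are named per list, and those beyond 4 were chosen after their values were seen. The divergent-start, CpG, GC box, CCAAT, ETS and NRF1 measures, the looser-letter sequences and the places by fold group were also chosen after values were seen. A sequence and a gene that the naming rule takes are not reported here. The set and the lists were chosen with earlier results of these data known. Class medians and fold groups under other overlaps were added after values were seen. Alternatives were stricter −log10 q, other definitions of overlap, joined H3K27ac peaks, no sex chromosomes, a wider window, protein-coding genes only and the looser letters.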

Additional observations from a re-analysis of the deposited data

How the results depend on the processing

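Of 45 alternative values, 28 stayed within the interval or 1.5-fold limit of the reported value. The median CTCF fold less that of CTCF peaks with neither, 1.46, turned to -0.985 with H3K27ac over 50% of the CTCF peak and to -1.07 with the summit inside, and kept its sign in the 6 other settings. The share of CTCF peaks in the set, highest less lowest of 10 groups by fold, was 5.43 points (4.37 to 6.50), and -0.363 (-1.17 to 0.444) and -0.554 (-1.35 to 0.237) under those settings. Both comparisons were chosen after seeing the data. Requiring H3K27ac over 50% of the CTCF peak left 2443 peaks, with a median CTCF fold of 8.24, a median H3K27ac fold of 10.5 and 64.3% at gene ends. Requiring the summit inside the H3K27ac peak left 2363 peaks, with 8.16, 10.4 and 64.2%. The median CTCF fold was 12.3 with CTCF −log10 q of at least 10 and 11.5 with that limit on Trim33. With it on H3K27ac, the median H3K27ac fold was 9.69, against 9.03 over the 3693 peaks, and 63.2% lay at gene ends. Gene-end shares were 83.6% within 5 kb and 55.3% for protein-coding genes only. The looser letters were in 36.5% of windows. Genes with such a peak were 15.1% within 5 kb and 9.10% with the stricter CTCF list. The share in the outer 50% of the H3K27ac peak stayed within its interval in 8 of 8 alternatives. Joined H3K27ac peaks have no fold of their own, so that alternative was not run for H3K27ac fold. No paired analysis was possible because there is 1 library per antibody. The Trim33 library, with 0.72% of reads in peaks, limits what its absence shows.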

Other observations

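Several acetylated peaks held more than 1 CTCF peak without Trim33. With each CTCF peak assigned to the H3K27ac peak sharing most of its bases, 184 of 3498 H3K27ac peaks held at least 2, covering 379 of the 3693 CTCF peaks. Counting each H3K27ac peak touched, 198 of 3759 held at least 2. Lmnb1, which encodes a nuclear lamin, had 4 CTCF peaks of fold 4.55 to 8.59 under an H3K27ac peak of 3087 bp and fold 30.5. Cdk6, a kinase of the G1 phase, had 4 of fold 5.27 to 14.4 under one of 3080 bp and fold 7.31. Pkm, Dipk1b and Gm52523 had 3 each.

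Far from genes the set was small. Between genes and over 10 kb from any end lay 103 peaks (2.79%), with a median CTCF fold of 9.37 and a median H3K27ac fold of 7.25. The highest by CTCF fold was nearest to Pard6b, a cell polarity protein, with a CTCF fold of 46.6 and an H3K27ac fold of 7.89, at 16.1 kb from the gene. The highest by H3K27ac fold was nearest to Slc17a5, a lysosomal sialic acid transporter, with an H3K27ac fold of 31.8 and a CTCF fold of 6.66. These genes were chosen after their values were seen.

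By chromosome, the share of CTCF peaks in the set was between 5.57% on chromosome 12 (4.64% to 6.67%) and 8.72% on chromosome 19 (7.46% to 10.2%), leaving out chromosome Y. On chromosome Y it was 0 of 14 CTCF peaks, where 0 H3K27ac peaks were listed.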
